A study of Mus musculus with 8 samples.

Results

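The 56 genes described here encode proteins that carry a cell through mitosis: the cyclins and kinases that start it, the spindle and its motors, the kinetochore and its checkpoint, condensin, and the machinery of anaphase and cytokinesis. They were taken as a list of gene symbols, matched to the Ensembl identifiers of the count files, and are 56 of the 39179 genes listed there. They were sorted by known role into 9 groups. All 56 were found, and all 56 had enough counts to be tested.

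RNA was sequenced from mouse CD4 T cells of the Smarta strain, a T cell receptor transgenic recognising a peptide of a virus, bred with mice that carry CreERT2, a recombinase that tamoxifen activates. The cells received a retroviral vector, either inducible for the transcription factor Bach2 or empty, and were transferred into C57BL/6 recipients that were immunized under the skin with the peptide and nitrophenol on mouse serum albumin. The 4 groups, of 2 libraries each, were Tfh cells (CXCR5+ PD-1+, helper cells of the B cell follicle) and non-Tfh cells (CXCR5- PD-1-), each with either vector, all sorted as Thy-1.1+ and CD44 high from pooled inguinal lymph nodes on day 6. The labels put tamoxifen on day 5, 18 hours before the cells were taken, in 1 protocol text shared by all groups. The labels do not give the age of the mice, the promoter that drives CreERT2, or whether the replicates are separate animals, so p-values measure only the spread between these libraries.

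The cyclin B and Cdk1 kinase triggers mitosis, chromosomes condense, and kinetochores built on centromeric chromatin attach to spindle microtubules. The checkpoint holds the cell until all are attached, and the anaphase-promoting complex then marks securin and the cyclins for destruction. Most of these genes are transcribed in a wave in G2 and mitosis and are kept low in resting cells, so their summed RNA is commonly read as a proliferation signature. Activated T cells divide rapidly after priming. Bach2 is a transcriptional repressor that competes with AP-1 factors at their sites and restrains effector differentiation of T cells.

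Library totals ran from 7862879 to 9889859 counts, and the smallest count of any of the 56 genes in any library was 47. Levels are given as CPM, counts scaled to the library total after TMM scaling (a factor per library, here 0.985 to 1.01, that evens out composition). With the empty vector, Bach2 stood at 11.2 and 14.0 CPM in Tfh and at 24.8 and 28.9 CPM in non-Tfh libraries. With the Bach2 vector it stood at 121 and 135 CPM in Tfh and at 130 and 157 CPM in non-Tfh libraries, which matches the labels. In proportion to the empty-vector level, the rise in Bach2 was thus larger in Tfh than in non-Tfh cells. The part of this in the vector comparisons below was not tested. Cxcr5, the follicle-homing receptor used in the sort, stood at 576 to 814 CPM in Tfh and at 17.3 to 28.2 CPM in non-Tfh libraries. Icos, a Tfh costimulator, went against its place on the Tfh list, at 542 to 746 CPM in Tfh and 641 to 937 CPM in non-Tfh libraries. The 5 B cell markers summed to 2.05 to 11.3 CPM and the 5 myeloid markers to 4.21 to 13.1 CPM across the 8 libraries.

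The promoters of many mitosis genes carry a cell cycle homology region (CHR, TTTGAA or TTCGAA), which the DREAM complex and MuvB proteins bind, and CCAAT boxes, which NF-Y binds. The 4 promoters below are those whose CHR lies nearest the annotated start among the members singled out by the rule given with the processing. Each runs 5′ to 3′ from 120 bases before to 20 bases after the start in RefSeq's annotation of mouse GRCm38.p6. Capitals mark CHR and CCAAT matches on either strand, so that TTCAAA and ATTGG are the same motifs read on the opposite strand. The positions are chr9:70421535-70421674 (minus strand) for Ccnb2, chr15:99651637-99651776 (minus strand) for Racgap1, chr2:131186828-131186967 (plus strand) for Cdc25b and chr9:83834569-83834708 (plus strand) for Ttk.
Ccnb2: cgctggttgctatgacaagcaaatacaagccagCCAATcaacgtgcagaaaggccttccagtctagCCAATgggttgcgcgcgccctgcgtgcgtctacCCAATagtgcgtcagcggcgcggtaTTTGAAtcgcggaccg
Racgap1: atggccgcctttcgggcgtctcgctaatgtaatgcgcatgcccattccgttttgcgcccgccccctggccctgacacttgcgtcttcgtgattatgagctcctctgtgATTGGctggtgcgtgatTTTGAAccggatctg
Cdc25b: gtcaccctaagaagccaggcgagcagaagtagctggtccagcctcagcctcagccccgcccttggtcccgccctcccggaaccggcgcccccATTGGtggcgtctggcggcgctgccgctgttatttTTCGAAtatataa
Ttk: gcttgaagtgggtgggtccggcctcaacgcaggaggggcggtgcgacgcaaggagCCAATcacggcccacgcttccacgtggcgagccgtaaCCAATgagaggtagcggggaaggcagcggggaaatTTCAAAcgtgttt
In all 4 the CHR lies just past the start, as TTCGAA in Cdc25b and as TTTGAA, on 1 strand or the other, in the other genes. The Ccnb2 window holds 3 CCAAT boxes, that of Ttk holds 2, and those of Racgap1 and Cdc25b hold 1 each.

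Of the 56 members, 47 had an entry in the promoter table, with 52 promoters between them. A CHR on either strand lay between 250 bases before and 50 bases after the start in 40 of those 52 promoters (76.9%), against 19.2% of all 32851 promoters in the table. CCAAT or ATTGG was found in 76.9% of the members' promoters and in 37.4% of all promoters. Within 50 bases of the start on either side, the CHR share was 65.4% for the members and 5.31% for all promoters. The AP-1 type core TGANTCA, which Bach factors can also bind, was found in 0 of the 52 promoters and in 7.81% of all promoters. It was also found in 0 of 24 promoters of the S phase genes described below. Among 94 promoters of the further mitosis genes described below, 5.32% held it. CCAAT was found in 58.3% of the S phase and 58.5% of the further mitosis promoters, and a CHR in 25% and 43.6%. TTCGAA and TGANTCA each read as the same motif on both strands, and no match of one motif is itself a match of another. A letter match is a description of the sequence and not evidence that a protein binds there.

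The 56 genes together were lowest in Tfh cells carrying the Bach2 vector. Their summed level was 4847 and 5902 CPM in the 2 empty-vector Tfh libraries and 4033 and 4234 CPM in the 2 Bach2-vector Tfh libraries. In non-Tfh cells it was 5152 and 5746 CPM with the empty vector and 5261 and 5018 CPM with the Bach2 vector. Both Bach2-vector Tfh libraries lay below the other 6, whereas the other groups overlapped one another. The mean sum was 23.1% lower with Bach2 than with the empty vector in Tfh cells (4134 ± 142 against 5374 ± 746 CPM, SD, n = 2) and 5.67% lower in non-Tfh cells (5140 ± 172 against 5449 ± 420 CPM, SD, n = 2). In a bulk library, fewer cells in mitosis and less of each RNA per cell cannot be told apart.

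**Figure D1:**
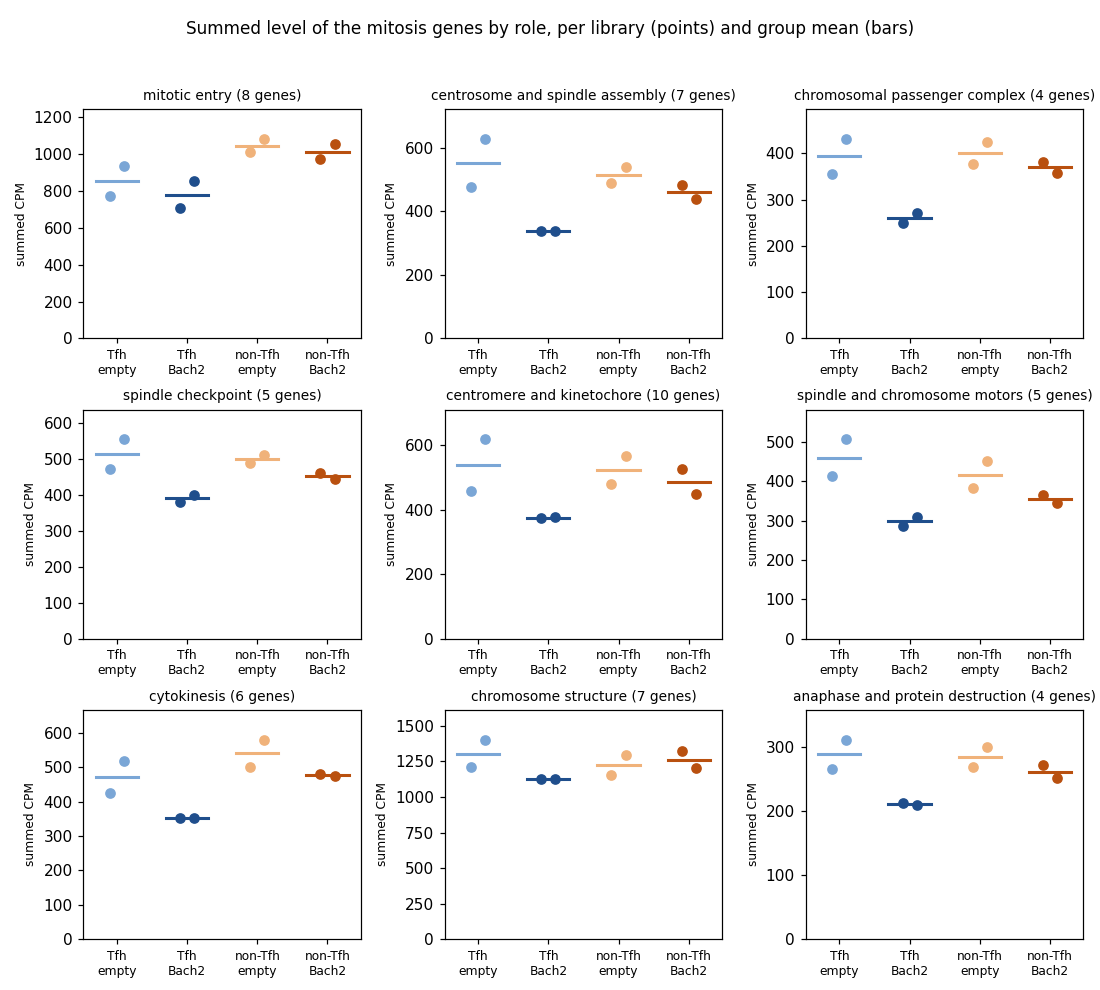
Summed level in CPM (vertical axes, from 0) of the genes of each of the 9 roles, 1 panel per role, in the 8 libraries by group; points are libraries and short horizontal bars are means of the 2 libraries of a group. In every panel but mitotic entry both Bach2-vector Tfh libraries lie below both empty-vector Tfh libraries, and of the latter replicate 2 (right point) is the higher.

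Each group of roles took part in this pattern to a different degree. The 7 centrosome and spindle assembly genes summed to 476 and 626 CPM in empty-vector and to 336 and 338 CPM in Bach2-vector Tfh libraries, a mean 38.8% lower. The 5 spindle and chromosome motors were 35.1% lower in sum, the 4 chromosomal passenger genes 33.8% lower and the 10 centromere and kinetochore genes 30.1% lower. At the other end, the 8 mitotic entry genes were 8.6% lower and the 7 chromosome structure genes 13.7% lower in sum. In the mitotic entry sum the 2 groups overlapped, at 772 and 933 CPM against 708 and 850 CPM. That sum holds Cdc25b, the most abundant member, whose level was higher with Bach2. The chromosome structure sum holds Smc4, another abundant member, with both Bach2-vector Tfh libraries above both empty-vector Tfh libraries. By median log2 fold change the mitotic entry genes stood at -0.58 and the chromosome structure genes at -0.43, against -0.60 for all 56. The order of roles by median thus differed from that by sum.

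Replicates of a group were not equal for these genes. In empty-vector Tfh cells replicate 2 was higher than replicate 1 in 55 of the 56 genes, by a median of 0.30 on the log2 scale. The same order held for 49 genes in empty-vector non-Tfh cells, for 30 in Bach2-vector Tfh cells and for 11 in Bach2-vector non-Tfh cells. Set against empty-vector replicate 1 alone, the mean of the Bach2-vector Tfh libraries was lower in 51 of 56 genes (median log2 ratio -0.42). Against replicate 2 alone it was lower in 53 of 56 genes (median -0.73). The direction thus did not rest on 1 of these libraries, while its size did.

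**Figure D2:**
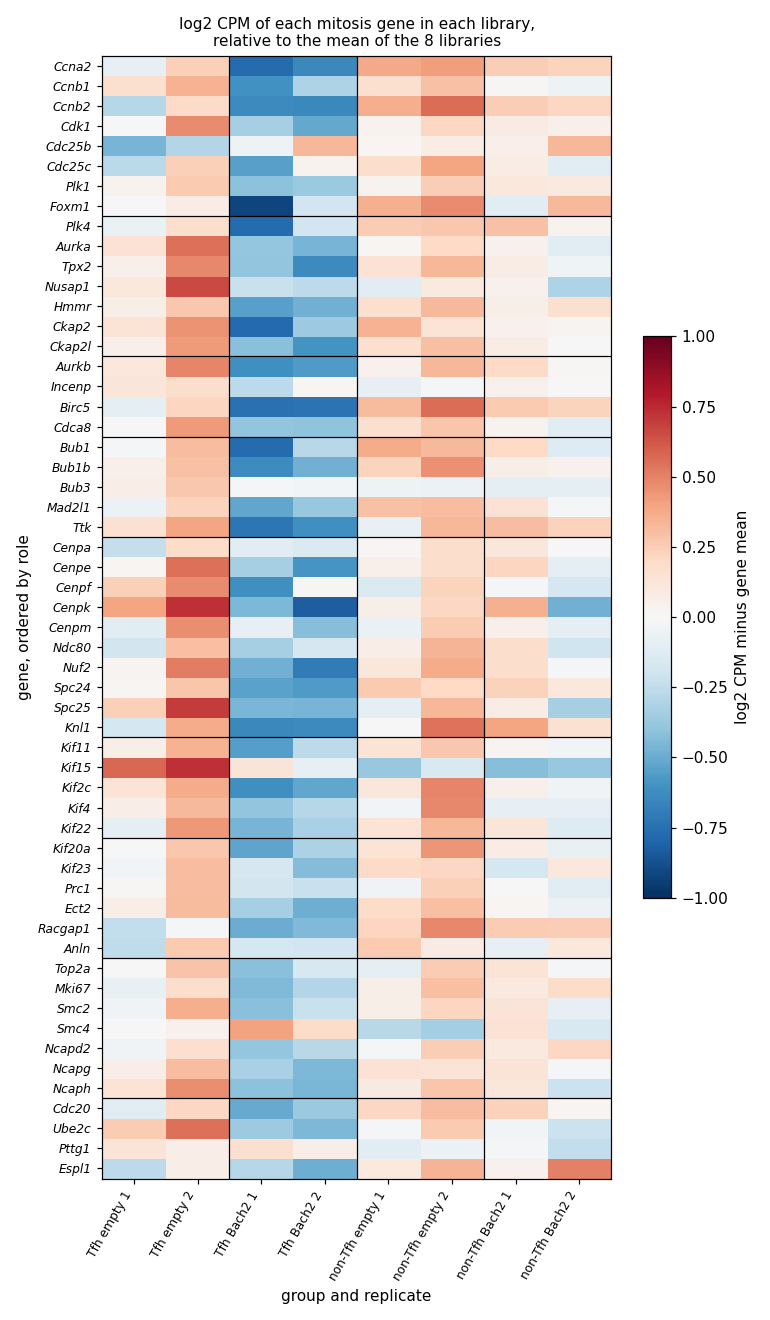
Level of each of the 56 genes (rows, ordered by role) in each of the 8 libraries (columns), as log2 CPM minus the gene's mean over the libraries. The 2 Bach2-vector Tfh columns are the lowest of the 8 for 41 of the 56 genes, and for Cdc25b and Smc4 they are above the 2 empty-vector Tfh columns.

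Both Bach2-vector Tfh libraries were below each of the other 6 in 41 of the 56 genes, a pattern seen in 10.4% of the 11475 genes tested. The group mean was lowest in Bach2-vector Tfh cells for 51 of the 56, against 27.7% of all tested genes. The 5 exceptions were Cdc25b, Bub3, Kif15, Smc4 and Pttg1.

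In Tfh cells, Bach2 against empty vector, 27 of the 56 genes fell, 0 rose and 29 did not pass the test (edgeR quasi-likelihood test, adjusted p below 0.05 over all tested genes). Of all tested genes 1.71% passed in this comparison, 1.16% lower and 0.549% higher. The median log2 fold change of the 56 was -0.60 and that of all tested genes was -0.00051. Of the 29 that did not pass, 26 had negative estimates and 9 had adjusted p between 0.05 and 0.1. The libraries of the 2 groups did not overlap, with Bach2 lower, in 48 of the 56 genes, against 22.9% of all tested genes. They did not overlap with Bach2 higher in 2 genes, against 21.7% of all tested genes.

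The number of calls depended on single libraries. Calls among all tested genes in the fits that left out a library are not given, here or below. These counts thus cannot tell a loss particular to the mitosis genes from a general loss of calls. Without empty-vector Tfh replicate 2 it dropped from 27 to 1, which was Ccna2. Without Bach2-vector Tfh replicate 2 it was 6, without Bach2-vector Tfh replicate 1 it was 17 (16 lower and 1 higher, Cdc25b), and without empty-vector Tfh replicate 1 it rose to 34. Ccna2 passed in all 8 fits that left out a library. Ccnb1, Birc5 and Bub1b passed in 7 of the 8, Ccnb2 in 1 and Cenpk in 2.

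**Figure D3:**
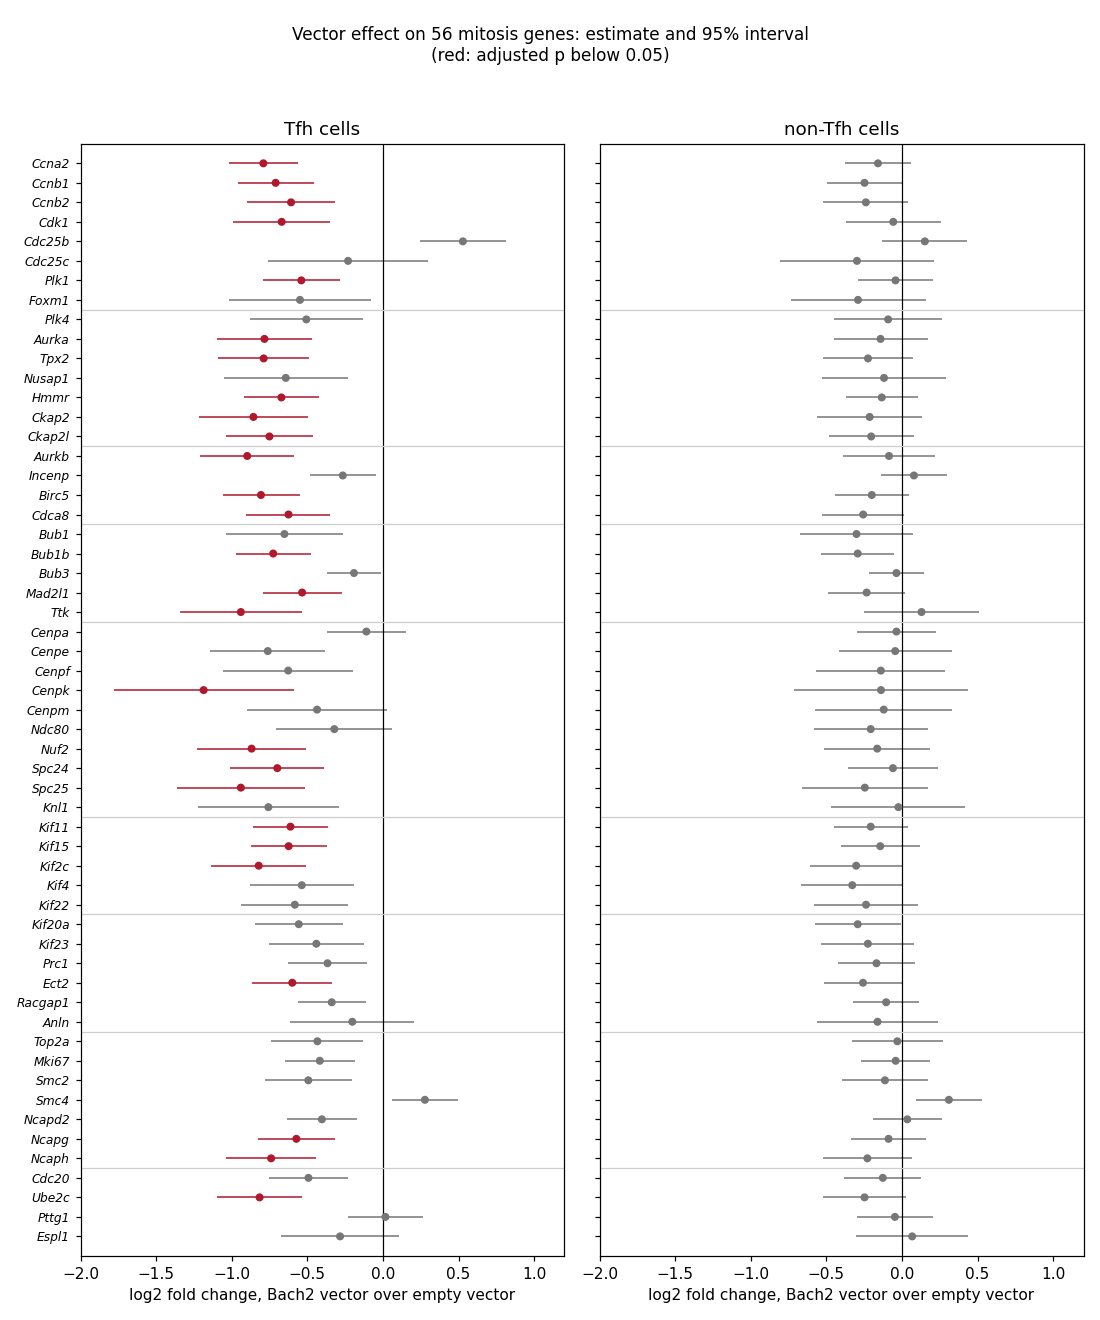
Log2 fold change of each of the 56 genes, Bach2 over empty vector (horizontal axis), in Tfh and in non-Tfh cells, with 95% intervals from the edgeR fit, genes ordered by role and those past the test in red. In Tfh cells 27 genes pass the test, all to the left of 0, and in non-Tfh cells none does.

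Of the 8 mitotic entry genes 5 fell. Ccna2, cyclin A2, which drives S phase and entry into mitosis, stood at 138 and 172 CPM in empty-vector and at 85.5 and 93.4 CPM in Bach2-vector Tfh libraries. The groups were well apart, and Ccna2 had the smallest adjusted p of the 56 (log2 fold change -0.79, SE 0.106, adjusted p = 0.00386). Ccna2 lies on chromosome 3, and 1 of its exons overlaps Exosc9 on the opposite strand. Ccnb1, cyclin B1, the activating partner of Cdk1, was at 95.9 and 110 CPM against 56.4 and 69.3 CPM (-0.71, SE 0.117, adjusted p = 0.0105). Ccnb2, the related cyclin whose promoter is printed above, was at 99.1 and 138 CPM against 78.0 and 77.4 CPM (-0.61, SE 0.135, adjusted p = 0.0435). For both B-type cyclins the Bach2 libraries lay below the empty-vector libraries. Cdk1 itself, the kinase they activate, fell by 0.67 and Plk1, a kinase that acts with it, fell by 0.54 on the log2 scale. Foxm1, a transcription factor of G2 and mitosis genes, had an estimate of -0.55 that did not pass (adjusted p = 0.234), and Cdc25c, a phosphatase that activates Cdk1, one of -0.23.

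Cdc25b, another phosphatase that removes inhibitory phosphates from Cdk1, pointed the other way. Its level was 279 and 315 CPM in empty-vector Tfh, 373 and 484 CPM in Bach2-vector Tfh, 392 and 405 CPM in empty-vector non-Tfh and 399 and 485 CPM in Bach2-vector non-Tfh libraries. The empty-vector Tfh libraries were the 2 lowest of the 8 and did not overlap the Bach2-vector Tfh libraries. The estimate of 0.53 (SE 0.128, 95% interval 0.25 to 0.81) missed the threshold in edgeR, with adjusted p = 0.069. It passed with DESeq2 (adjusted p = 0.00361). In edgeR the estimate was 0.71 without Bach2-vector Tfh replicate 1 and 0.33 without Bach2-vector Tfh replicate 2. It was 0.44 without empty-vector Tfh replicate 1 and 0.62 without empty-vector Tfh replicate 2. The size of the rise thus depended on single libraries. An exon of Cdc25b overlaps Spef1 on the opposite strand, and since the library kit does not mark strand the 2 genes' reads cannot be told apart there.

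Of the 7 centrosome and spindle assembly genes 5 fell. Hmmr, a spindle assembly factor that binds microtubules, was at 69.6 and 80.5 CPM in empty-vector and at 46.1 and 48.0 CPM in Bach2-vector Tfh libraries (-0.67, SE 0.115, adjusted p = 0.0121). Ckap2l, a protein of spindle microtubules, was at 61.6 and 79.6 CPM against 44.4 and 39.2 CPM (-0.75, SE 0.135, adjusted p = 0.0174). In both genes the groups were apart. The kinase Aurka and its activator Tpx2 fell by nearly the same amount, 0.78 and 0.79 on the log2 scale, and Ckap2, which stabilises spindle microtubules, fell by 0.86. Nusap1, which bundles spindle microtubules, was at 115 and 169 CPM against 91.8 and 89.4 CPM. Its estimate of -0.64 was of similar size, but its empty-vector libraries differed more and it did not pass (SE 0.181, adjusted p = 0.122). Plk4, the kinase of centriole duplication, had an estimate of -0.51 (adjusted p = 0.163).

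The chromosomal passenger complex joins the kinase Aurora B to its scaffold and to 2 targeting subunits, and corrects faulty attachments. Aurkb, the kinase, was at 65.3 and 85.3 CPM in empty-vector and at 39.8 and 40.9 CPM in Bach2-vector Tfh libraries (-0.90, SE 0.145, adjusted p = 0.0104). Birc5, or survivin, was at 90.3 and 112 CPM against 57.3 and 57.8 CPM (-0.81, SE 0.119, adjusted p = 0.00674). Both genes were lower in both Bach2-vector Tfh libraries than in all other libraries. Cdca8, or borealin, fell by 0.63 on the log2 scale. The scaffold Incenp did not pass, at 117 and 121 CPM against 89.4 and 109 CPM (-0.27, SE 0.102, adjusted p = 0.214), so that 3 of the 4 subunits fell.

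Of the 5 spindle checkpoint genes 3 fell. Bub1b, or BubR1, which holds back the anaphase-promoting complex, was at 92.9 and 110 CPM in empty-vector and at 58.1 and 64.4 CPM in Bach2-vector Tfh libraries (-0.73, SE 0.116, adjusted p = 0.00991). Ttk, or Mps1, the kinase at the head of the checkpoint, was at 19.6 and 23.3 CPM against 10.7 and 11.6 CPM (-0.94, SE 0.189, adjusted p = 0.0227). Ttk was among the members with the largest fold change, at a low level. Mad2l1, which binds Cdc20, fell by 0.54 on the log2 scale, and the kinase Bub1 had an estimate of -0.65 that did not pass (adjusted p = 0.0887). Bub3, which brings Bub1 and BubR1 to kinetochores, was the most abundant of the 5, at 260 and 299 CPM against 245 and 244 CPM (-0.19, SE 0.0843, adjusted p = 0.284). The lowest group mean of Bub3 was in Bach2-vector non-Tfh cells.

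Of the 10 centromere and kinetochore genes 4 fell. The Ndc80 complex grips the microtubule end and has 4 subunits. Nuf2 was at 45.3 and 63.5 CPM in empty-vector and at 31.9 and 27.4 CPM in Bach2-vector Tfh libraries (-0.87, SE 0.168, adjusted p = 0.0202). Spc24 was at 29.7 and 35.4 CPM against 20.2 and 19.8 CPM (-0.70, SE 0.145, adjusted p = 0.0255). Its partner Spc25 fell by 0.94 on the log2 scale, while Ndc80 itself had an estimate of -0.32 that did not pass (adjusted p = 0.403) and overlapping groups. The 3 subunits that fell thus had non-overlapping groups and Ndc80 did not.

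Cenpk, a subunit of the inner kinetochore network, had the largest estimate of the 56 at the lowest level per length. It was at 13.2 and 16.7 CPM in empty-vector and at 7.37 and 5.67 CPM in Bach2-vector Tfh libraries (-1.19, SE 0.277, adjusted p = 0.0479). Its 2 Bach2-vector non-Tfh libraries were at 12.9 and 7.19 CPM and so covered much of that range. Cenpa, the histone H3 variant that marks centromeres, was at 124 and 166 CPM against 136 and 133 CPM, with overlapping groups (-0.11, SE 0.121, 95% interval -0.37 to 0.15, adjusted p = 0.726). Estimates of the kinetochore motor Cenpe (-0.76), the scaffold Knl1 (-0.76), Cenpf (-0.63) and Cenpm (-0.44) were negative and did not pass.

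Of the 5 motors 3 fell. Kif2c, which takes microtubule ends apart at kinetochores, was at 48.1 and 56.6 CPM in empty-vector and at 28.6 and 30.5 CPM in Bach2-vector Tfh libraries (-0.82, SE 0.147, adjusted p = 0.0174). Kif11, or Eg5, which pushes spindle poles apart, was at 147 and 180 CPM against 96.5 and 118 CPM (-0.61, SE 0.115, adjusted p = 0.0185). Kif15, which can stand in for Kif11 once a bipolar spindle exists, was at 98.0 and 109 CPM against 72.1 and 62.3 CPM (-0.62, SE 0.117, adjusted p = 0.0179). The 2 partly redundant motors fell by almost the same amount. The chromosome-arm motors Kif4 (-0.54) and Kif22 (-0.58) did not pass.

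Cytokinesis genes build the central spindle and the cleavage furrow. Of the 6 cytokinesis genes 1 fell, Ect2, which activates RhoA at the cleavage furrow, at 57.0 and 67.8 CPM in empty-vector and 43.3 and 38.9 CPM in Bach2-vector Tfh libraries (-0.60, SE 0.124, adjusted p = 0.0255). Kif20a, a motor of the central spindle, was at 71.4 and 86.5 CPM against 49.8 and 57.4 CPM and just missed the threshold (-0.56, SE 0.135, adjusted p = 0.0559). Racgap1, a subunit of the centralspindlin complex that recruits Ect2, was at 135 and 159 CPM against 114 and 118 CPM (-0.34, SE 0.104, adjusted p = 0.122). All 3 had groups that did not overlap. Kif23, the other centralspindlin subunit, and the microtubule bundler Prc1 had estimates of -0.44 and -0.37, and the furrow protein Anln one of -0.20.

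Condensin I and II share Smc2 and Smc4, to which condensin I adds Ncapd2, Ncapg and Ncaph. Of the 7 chromosome structure genes 2 fell, both of them condensin I subunits. Ncaph was at 71.0 and 88.7 CPM in empty-vector and at 48.6 and 46.8 CPM in Bach2-vector Tfh libraries (-0.74, SE 0.139, adjusted p = 0.0179), and Ncapg at 68.2 and 81.0 CPM against 52.2 and 47.9 CPM (-0.57, SE 0.118, adjusted p = 0.0248). Ncapd2, the other non-shared subunit of condensin I, had an estimate of -0.40 (adjusted p = 0.0783). Smc4 and Smc2, which pair with each other, differed in sign: Smc2 had an estimate of -0.49 (adjusted p = 0.087) and Smc4 one of 0.28. Smc4 was at 373 and 385 CPM with the empty vector and at 493 and 425 CPM with Bach2 (SE 0.102, adjusted p = 0.194), and these groups did not overlap. Mki67, the proliferation marker Ki-67, which coats mitotic chromosomes, was at 171 and 203 CPM against 133 and 147 CPM (-0.42, SE 0.108, adjusted p = 0.071). Top2a, which untangles sister chromatids, had an estimate of -0.43 (adjusted p = 0.152).

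Of the 4 anaphase genes 1, Ube2c, fell. It is the ubiquitin-conjugating enzyme of the anaphase-promoting complex, and was at 93.4 and 115 CPM in empty-vector and at 60.8 and 57.3 CPM in Bach2-vector Tfh libraries (-0.82, SE 0.13, adjusted p = 0.00991). Cdc20, the activator of that complex, was at 84.3 and 105 CPM against 64.0 and 70.2 CPM (-0.49, SE 0.121, adjusted p = 0.058). Pttg1, or securin, the inhibitor of separase, was at 61.3 and 58.5 CPM against 62.5 and 58.6 CPM. The 4 Pttg1 values lay within 1 narrow range (0.02, SE 0.116, 95% interval -0.23 to 0.27, adjusted p = 0.964). Espl1, separase, had an estimate of -0.28 (adjusted p = 0.485).

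The promoter motifs were found both among the genes that fell and among the rest. Among the 47 members with a promoter entry, a CHR was found for 17 of the 23 that fell and for 20 of the 24 that did not pass. CCAAT boxes were found for 17 of the 23 and 18 of the 24. Of the printed promoters, those of Ccnb2 and Ttk belong to genes that fell, and those of Racgap1 and Cdc25b to genes that did not pass. No test was made of these counts.

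Among 104 further mitosis genes that are not members, 18 fell and none rose in Tfh cells, with a median log2 fold change of -0.37. Of all tested genes 1.16% fell in this comparison. Of 31 further kinetochore and centromere genes 4 fell, among them Kntc1, a checkpoint protein of the outer kinetochore (-0.96, adjusted p = 0.0179), and Sgo1, which protects centromeric cohesin (-0.86, adjusted p = 0.0198). Of 25 further spindle, motor and cytokinesis genes 7 fell, among them Kpna2, an importin (-0.64, adjusted p = 0.0105), and Melk, a kinase of dividing cells (-0.85, adjusted p = 0.0174). Of 18 further regulators of entry and exit 5 fell, among them the Cdk-binding proteins Cks1b (-0.68) and Cks2 (-0.67). Of 15 genes of the anaphase-promoting complex, its subunits and the activator Fzr1, none fell or rose, although its enzyme Ube2c fell. Their median was -0.07, and Cdc27 (-0.36) and Fzr1 (-0.21) had the smallest p among them.

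Of 12 cohesin genes 1 fell, Esco2, an S phase acetyltransferase of cohesin (-0.81, adjusted p = 0.0378), with a median of -0.02 for the list. Nipbl, the cohesin loader, had an estimate of 0.33 (adjusted p = 0.104). Of the 3 subunits of condensin II that it does not share, Ncapg2 fell (-0.75, adjusted p = 0.0107) and Ncapd3 did not pass (-0.35, adjusted p = 0.109). Of 25 S phase genes 14 fell and none rose, where 1.16% of all tested genes fell. Their median was -0.58, close to that of the mitosis genes. Mcm5, part of the MCM helicase, fell by 0.74 and Cdc6, which loads that helicase, fell by 1.23 on the log2 scale. Both Bach2-vector Tfh libraries were the lowest of the 8 in 23 of the 25 S phase genes and in 49 of the 104 further mitosis genes. The same pattern was seen in 10.4% of all tested genes. None of the 5 tested G1 cyclin and kinase genes passed, with Cdk2 at -0.48 (adjusted p = 0.057) and Cdk4 at -0.22.

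Markers of other cell types were read beside these falls. The 6 Tfh markers summed to 2610 to 2920 CPM in empty-vector and to 2080 to 2430 CPM in Bach2-vector Tfh libraries. The NK cell list, at 61.7 to 65.2 against 90.3 to 100 CPM, has 1 of its 3 genes at 0 in all libraries. The stroma and endothelium list was at 229 to 236 against 249 to 281 CPM, with a mean below 1 CPM in 3 of its 4 genes. The 5 B cell markers were at 3.79 to 4.71 against 2.05 to 3.14 CPM, and the 3 plasma cell markers at 176 to 195 against 168 to 170 CPM. A mean below 1 CPM was found in 3 of these B cell genes and in 1 of these plasma cell genes. The CD4 T cell list did not separate the groups, at 9750 to 10100 against 9720 to 11000 CPM. The part of these shifts in the fall of the mitosis genes was not tested.

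In non-Tfh cells, Bach2 against empty vector, none of the 56 genes passed the edgeR test (smallest adjusted p = 0.259), where 0.871% of all tested genes did (0.619% lower and 0.253% higher). DESeq2 also called none, and 4 of the 56 had an unadjusted p below 0.05, against 10.3% of all tested genes. The median log2 fold change was -0.14, with 50 of 56 estimates negative and a range of -0.33 to 0.31. The libraries of the 2 groups overlapped in 29 genes, lay lower with Bach2 in 25 (21.3% of all tested genes) and higher in 2 (20.9%). Against empty-vector replicate 1 the mean of the Bach2 libraries was lower in 39 genes, and against replicate 2 in 53.

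Among the genes with the smallest p in non-Tfh cells, Bub1b was at 105 and 123 CPM with the empty vector and at 93.4 and 92.5 CPM with Bach2 (-0.29, 95% interval -0.54 to -0.05, adjusted p = 0.367). Kif20a was at 78.8 and 97.2 CPM against 75.5 and 68.2 CPM (-0.29, 95% interval -0.58 to -0.01, adjusted p = 0.468). Smc4, the condensin subunit, was at 308 and 295 CPM against 412 and 336 CPM (0.31, 95% interval 0.09 to 0.53, adjusted p = 0.259). In Bub1b and Kif20a both Bach2 libraries were the lower ones, and in Smc4 both were the higher ones, as in Tfh cells. Positive estimates that did not pass were also found for Cdc25b (0.15), Ttk (0.13), Incenp (0.08), Espl1 (0.07) and Ncapd2 (0.04). Ccna2, the strongest call in Tfh cells, was at 190 and 195 CPM against 173 and 171 CPM (-0.16, 95% interval -0.38 to 0.06, adjusted p = 0.651).

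Whether Bach2 changed these genes more in Tfh than in non-Tfh cells was tested as an interaction of vector and cell type. No gene of the 56 and 0% of the 11475 tested genes passed in edgeR (smallest adjusted p among the 56 = 0.549), and DESeq2 called none of the 56. The estimates were negative, that is the log2 fold change was lower in Tfh cells, for 53 of the 56, with a median of -0.41. One of them, Smc4, had positive estimates in both cell types. At an unadjusted p below 0.05 there were 29 of the 56, all negative, and 539 of the 11475 tested genes. The smallest p were those of Ccna2 (-0.63, SE 0.147, unadjusted p = 0.000726, adjusted p = 0.549), Ttk (-1.07, SE 0.259, adjusted p = 0.658) and Aurkb (-0.81, SE 0.202, adjusted p = 0.658). Ttk was at 16.8 and 22.2 CPM in empty-vector and at 21.9 and 20.7 CPM in Bach2-vector non-Tfh libraries, with overlapping groups, and Aurkb likewise at 62.7 and 76.3 against 69.7 and 61.2 CPM. Positive estimates were found for Cdc25b, Cdc25c and Pttg1.

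Tfh and non-Tfh cells with the empty vector had similar levels of these genes as a set. The comparison addresses whether the cell types differ without the Bach2 vector. The median log2 fold change, Tfh over non-Tfh, was 0.01, and 49 of the 56 genes did not pass. Of the 56, 2 were higher (10.6% of all tested genes were) and 5 were lower (11.3% were), so that neither share was above that of all genes. Without empty-vector non-Tfh replicate 2, 1 of the 7 calls was left, which was Kif15. Without empty-vector Tfh replicate 1 there were 3 calls, and without non-Tfh replicate 1 there were 4.

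Kif15, the spindle motor, was the one member that set Tfh cells apart in the upward direction by a wide margin. It was at 98.0 and 109 CPM in Tfh and at 50.8 and 59.4 CPM in non-Tfh libraries with the empty vector (0.91, SE 0.118, adjusted p = 7.07e-05), and passed in all 15 alternative fits. With the Bach2 vector it was at 72.1 and 62.3 CPM in Tfh and at 49.1 and 50.6 CPM in non-Tfh libraries (0.43, SE 0.12, adjusted p = 0.0171). The Tfh libraries were higher with both vectors, and Kif15 fell with Bach2 in Tfh cells. Smc4 was the other gene higher in Tfh cells, with the empty vector (0.33, SE 0.102, adjusted p = 0.0334) and with Bach2 (0.30, SE 0.102, adjusted p = 0.0483). Of the 15 alternative fits, Smc4 passed in 11 with the empty vector and in 7 with Bach2. Its estimate ran from 0.30 to 0.36 with the empty vector and from 0.16 to 0.45 with Bach2.

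Of the 5 genes lower in Tfh cells with the empty vector, 3 (Ccnb2, Cdc25b and Ccna2) were among the 8 mitotic entry genes. That is 37.5% of this role, against 11.3% of all tested genes. The mitotic entry genes summed to 772 and 933 CPM in Tfh and to 1007 and 1079 CPM in non-Tfh libraries. Racgap1 and Birc5 came from other roles. Roles were not tested as sets. Racgap1, of centralspindlin, was at 135 and 159 CPM in Tfh and at 187 and 224 CPM in non-Tfh libraries (-0.48, SE 0.103, adjusted p = 0.00379). Ccnb2 was at 99.1 and 138 against 156 and 178 CPM (-0.50, SE 0.131, adjusted p = 0.0164), and Birc5 at 90.3 and 112 against 120 and 142 CPM (-0.38, SE 0.114, adjusted p = 0.029). Cdc25b (-0.42, adjusted p = 0.0366) and Ccna2 (-0.31, adjusted p = 0.0434) were the others. In all 5 the Tfh libraries lay below the non-Tfh libraries, as they did in 30.9% of all tested genes. Ccna2 passed in 4 of the 8 fits that left out a library, Cdc25b in 4, and Racgap1, Ccnb2 and Birc5 in 6.

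**Figure D4:**
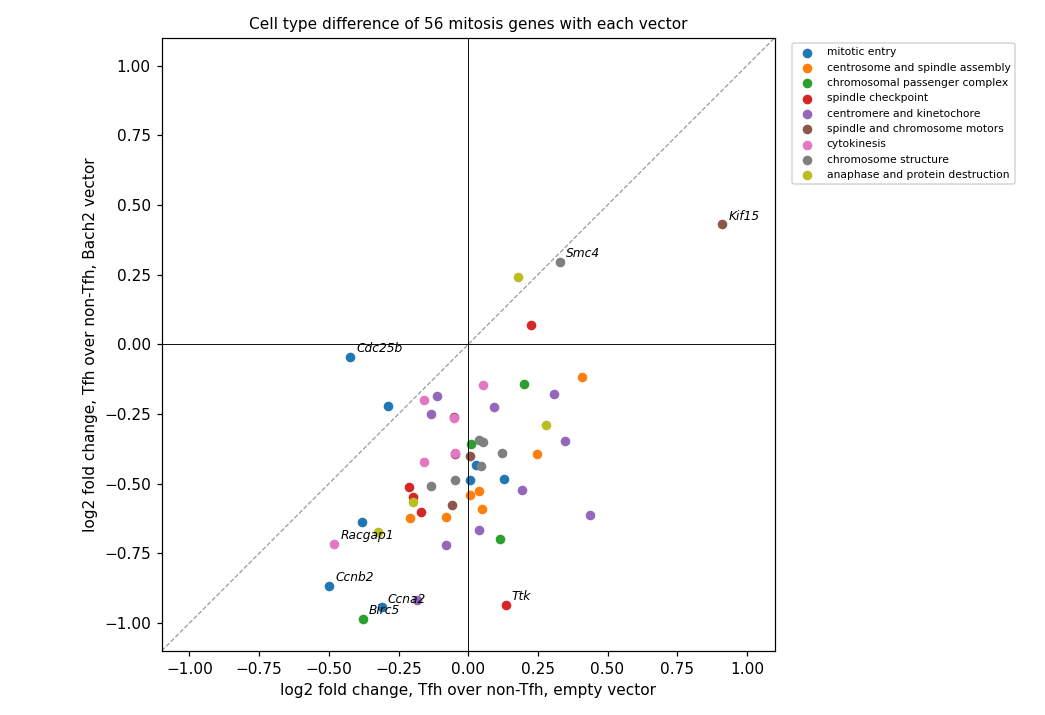
Log2 fold change of each of the 56 genes, Tfh over non-Tfh cells, with the empty vector (horizontal axis) and with the Bach2 vector (vertical axis), coloured by role, with the diagonal of equal change dashed. Most points lie below the diagonal around 0 on the horizontal axis, and Kif15 and Smc4 are positive with both vectors.

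With the Bach2 vector, Tfh cells had 31 of the 56 genes lower than non-Tfh cells and 2 higher, at a median log2 fold change of -0.44. Among all tested genes 12.7% were lower and 11.6% higher, with a median of 0.00061. The calls with the smallest adjusted p were Ccna2 (-0.94, adjusted p = 1.88e-05), Birc5 (-0.98, adjusted p = 3.6e-05), Racgap1 (-0.72, adjusted p = 0.000177) and Ccnb2 (-0.87, adjusted p = 0.000489), 4 of the 5 genes already lower with the empty vector. Hmmr, Bub1b, Spc24, Ttk, Aurkb and Mki67 followed, at -0.62, -0.60, -0.72, -0.94, -0.70 and -0.51. These 6 had empty-vector estimates between -0.17 and 0.13 that did not pass. The number of calls was 17 without Bach2-vector non-Tfh replicate 1 and 20 without Bach2-vector Tfh replicate 1. These comparisons of cell types share libraries with those of the vectors and add no independent count.

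By role, with the Bach2 vector, the lower calls were 6 of 8 mitotic entry genes, 5 of 7 centrosome and spindle assembly genes, 2 of 4 passenger genes and 4 of 5 checkpoint genes. They were 4 of 10 centromere and kinetochore genes, 2 of 5 motors, 3 of 6 cytokinesis genes, 3 of 7 chromosome structure genes and 2 of 4 anaphase genes. Cdc25b, lower in Tfh cells with the empty vector, had an estimate of -0.05 with Bach2 (adjusted p = 0.845). Bub3 and Pttg1 had positive estimates that did not pass.

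The levels of these genes differed widely, on a scale of CPM per kilobase of exon. Cdc25b was the highest at 105 CPM per kilobase over all libraries, followed by Ccnb2 at 82.5, Smc4 at 72.6 and Cdc20 at 49.4 CPM per kilobase. The lowest were Cdc25c at 2.42, Anln at 2.05 and Cenpk at 2.03 CPM per kilobase. Cdc25b and Smc4, whose estimates with Bach2 were positive in both cell types, were thus among the most abundant, and Cenpk, with the largest fall, was the least abundant and had the widest SE of the 27 genes that fell. Exons of 18 of the 56 genes overlap another gene in the annotation, in 15 of them on the opposite strand, so that some of their counts can belong to the neighbour.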

How the data were processed

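The authors deposited 1 table of read counts per library, whole numbers per Ensembl gene. Per the submitters' processing notes, TopHat2, Bowtie2 and featureCounts were used on GRCm38 (mm10). Tool versions, the annotation release and how multiply mapping reads were counted are named in no source used here. Symbols, positions and exon lengths came from GENCODE M21 (37693 of 39179 identifiers matched), and promoters from RefSeq GRCm38.p6. The unmatched identifiers stayed in library totals and tests. The kit named in the labels does not mark strand.

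Genes were filtered with filterByExpr (minimum count 10, minimum total 15), leaving 11475, and fitted in edgeR 4.0.16 (R 4.3.3) with TMM factors and a robust quasi-likelihood test over all 8 libraries, 1 coefficient per group, 4 residual degrees of freedom. P-values were Benjamini-Hochberg adjusted over all tested genes, with 0.05 as threshold. The fit was tested on simulated data, drawn independently for each gene and library with the spread that the fit itself estimated. Those data held no shift shared by many genes of a library, so the simulation does not address such a shift. The smallest p of an exact permutation test with 2 libraries a group is 0.333. The floor of 3 counts was 0.303 to 0.382 CPM. Replicate pairs differed by more than sampling noise (chi-square per degree of freedom 5.77 to 8.97).

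Genes singled out by rule were, per role, the 2 with the smallest p in the vector comparison of Tfh cells and the most abundant. Added to these were members past the threshold in other comparisons (10 at most, or the 3 with the smallest p), members of opposite sign, and at most 2 genes per further list. Most of these members are given with values in the libraries compared, and the genes of the further lists with estimates only. Other members are named with their estimate for completeness, and Cenpk and Ndc80 were singled out after their values were seen. The members and lists were chosen with earlier results of these data known. Alternatives tried were other size factors, no filter, a non-robust fit, a replicate block, only the groups compared, DESeq2 1.42.0, leaving out each library, and shorter promoter windows.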

Additional observations from a re-analysis of the deposited data

How the results depend on the processing

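The median fold change of the mitosis genes in Tfh cells stayed negative in each of the 15 alternative fits, from -0.73 to -0.43, and the number of calls varied with the fit. The 27 members past the threshold became 47 without the filter on low counts (45 lower, with Cdc25b and Smc4 higher), 38 with DESeq2 and 22 with only the groups compared. With the replicate number as a block the count was 40 (39 lower, 1 higher, Cdc25b). The labels do not say that the numbers pair the libraries, and the correlation of same-numbered deviations ran from -0.0123 to 0.258. Leaving out 1 library gave 1 to 34 members, the fewest without empty-vector Tfh replicate 2. In non-Tfh cells the count of 0 became 1 without the filter (Smc4, higher) and was 0 in each leave-one-out fit. For the difference between cell types of the vector effect, 0 became 4 without the filter (Ccna2, Aurkb, Birc5 and Ttk, all lower). The Tfh against non-Tfh counts ran from 1 to 7 (main value 7) with the empty vector and from 17 to 36 (main value 33) with Bach2 when 1 library was left out. Calls among all tested genes in these alternative fits are not given here. The counts thus cannot tell a change particular to the mitosis genes from a general one. The share of members' promoters with CCAAT was 61.5% in the window of 100 bases before to 50 after the start. Causes of these changes were not tested. How far depth limited the tests of low-count members was not tested; the smallest count of a member in a library was 47.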
